A study of Mus musculus with 5 samples.

Results

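RNA-seq values of 9 genes of the hedgehog pathway were read in 5 libraries of cultured mouse cells. The genes are the ligand Shh, the receptors and co-receptors Ptch1, Boc and Cdon, the signal transducer Smo, the transcription factors Gli1, Gli2 and Gli3, and the secreted antagonist Hhip. They were chosen by their symbols, though with earlier results of these data known. All 9 were found, with 1 row each, among the 20178 transcripts of the deposited tables. All cultures came from ICR mice at passage 2, and each condition is a library without replicate. The conditions are ventral midbrain (VM) astrocytes of postnatal day 5 without virus (titled mAST-VM, here VM), the same kind of culture transduced with lentiviruses under the titles mAST-VM C (here VM C) and mAST-VM NF (here VM NF), cortical (Ctx) astrocytes of postnatal day 5 without virus (mAST-CTX) and cortical neural progenitor cells (NPCs) of embryonic day 12 without virus (mNPC-CTX). The labels call all astrocyte cultures astrocyte progenitor cells.

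The labels of the transduced libraries contradict each other. The titles and the first lines of the tables give C and NF, while the treatment entry of C names the Nurr1 and Foxa2 viruses and that of NF names the mock virus. The titles were followed, so VM C is taken as the mock control and VM NF as the culture that received Nurr1 and Foxa2. With the treatment entries instead, the 2 libraries would exchange names and each difference between them would change its sign. Foxa2 had 216 reads in VM NF, 15 in VM C and 68 in VM, and Nr4a2, the gene of Nurr1, had 183, 53 and 81. The library whose title names these factors thus held most reads of both, which does not settle the labels with 1 library each. In Ctx astrocytes and Ctx NPCs Foxa2 had 1 read and 0 reads (a count of 0 allows up to the floor of 3 reads, 0.150 CPM), and Nr4a2 had 106 and 93. The study's vectors drive mouse Nurr1 and rat Foxa2 cDNA from the CMV promoter, which is not restricted to astrocytes, and its mock virus carries the empty backbone.

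Hedgehog ligands are secreted proteins that are released from a lipid-modified form and bind Ptch1, with Boc and Cdon as co-receptors. Without ligand, Ptch1 holds back the membrane protein Smo, and Gli3 and Gli2 are processed in a cilium-dependent way into repressors of transcription. With ligand, Smo is freed, Gli factors act as activators, and cells transcribe Gli1, Ptch1 and Hhip, the last of which binds and withholds the ligand. Shh from the floor plate patterns the ventral midbrain of the embryo, and Foxa2, which was transduced here, is both a target of the pathway and an activator of Shh in the floor plate. Transcript levels of these genes are not a measure of signalling itself.

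Ptch1 and Hhip are feedback targets of the pathway whose transcripts went different ways between the libraries, so the stretches before their starts are shown. Both are the 250 bases before the transcription start in the RefSeq promoter table of GRCm38.p6, which matched 6 of the 9 genes and had no entry for Shh, Gli1 and Boc. Each is written 5′ to 3′ on the strand of the gene, and capitals mark the 9 bases that share most letters with the Gli motif TGGGTGGTC, searched on both strands (reverse complement GACCACCCA).
Ptch1, chr13:63565736-63565985, minus strand: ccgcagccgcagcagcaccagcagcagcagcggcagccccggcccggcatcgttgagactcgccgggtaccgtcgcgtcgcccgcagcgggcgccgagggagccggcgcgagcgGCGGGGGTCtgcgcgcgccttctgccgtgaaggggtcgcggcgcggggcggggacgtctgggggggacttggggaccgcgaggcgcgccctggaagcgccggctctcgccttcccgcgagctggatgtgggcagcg
Hhip, chr8:80058009-80058258, minus strand: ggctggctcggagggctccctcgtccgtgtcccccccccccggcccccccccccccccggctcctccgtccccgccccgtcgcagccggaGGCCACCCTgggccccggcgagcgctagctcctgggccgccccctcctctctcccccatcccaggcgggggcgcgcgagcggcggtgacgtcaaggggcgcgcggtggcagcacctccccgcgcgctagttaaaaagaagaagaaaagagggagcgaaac
Exons lying in these windows were not searched for. The Ptch1 window lies inside the span of its gene, before the start of the deposited transcript, and the RefSeq span of Hhip reaches into its window. Among the windows searched but not printed, those of Gli2 and Cdon also lie inside the spans of their genes. In the Ptch1 window the closest stretch shared 6 of 9 letters and began 136 bases before the start. In the Hhip window it shared 7, lay on the reverse strand and began 160 bases before the start. All 9 letters were present in 0.225% of 32851 promoter windows of this length and in 0 of the 6 windows of these genes, and at least 8 letters in 5.79% of all windows and in 0 of the 6. At least 7 letters were shared in 51.8% of all windows and in 3 of the 6 (Gli2, Smo and Hhip), so a match of that kind is common. The windows had a GC content of 78.4% with 41 CG pairs for Ptch1 and 76.0% with 28 for Hhip.

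Library totals lay between 20010818 and 22554835 counted reads. A level is given as CPM, the count scaled to the library total, or, to compare genes with each other, as FPKM, which also divides by transcript length. The floor of 3 reads equals 0.133 to 0.150 CPM. A difference is a log2 ratio of CPM with 0.5 reads added, and intervals hold 95% counting error only, with no variation between cultures. A gene is counted as past 2-fold only if either library had it above an FPKM of 1. Since no condition was replicated there is no test, and no difference has a replicate check. Summed FPKM of 9 astrocyte markers was 443 to 537 in the VM libraries, 1171 in Ctx astrocytes and 3465 in the Ctx NPC library. Markers of mature oligodendrocytes (8 genes) summed to 90.8 to 168 in the astrocyte libraries and 3018 in the Ctx NPC library, whose 7 neural progenitor markers, at 2264, were the lowest of the 5 libraries. It is therefore called the library labelled Ctx NPC. In bulk RNA, fewer cells of a type and less RNA per cell cannot be told apart.

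Shh, the ligand, varied most of the 9 genes. NM_009170 (RefSeq places the gene at 28456840 to 28467101 on chromosome 5 of GRCm38) had 1003 reads in VM, 263 in VM C, 750 in VM NF, 54 in Ctx astrocytes and 2 in the library labelled Ctx NPC. These are 47.1, 11.7, 36.9, 2.52 and 0.0999 CPM, and the intervals of neighbours in this order did not overlap. The VM libraries were all above the cortical libraries, and the highest level was 471-fold the lowest, which lies under the floor of 3 reads. Per length, Shh was the third of the 9 genes in VM and VM NF, at an FPKM of 17.6 and 13.8, the fourth in VM C and the last in the library labelled Ctx NPC.

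**Figure D1:**
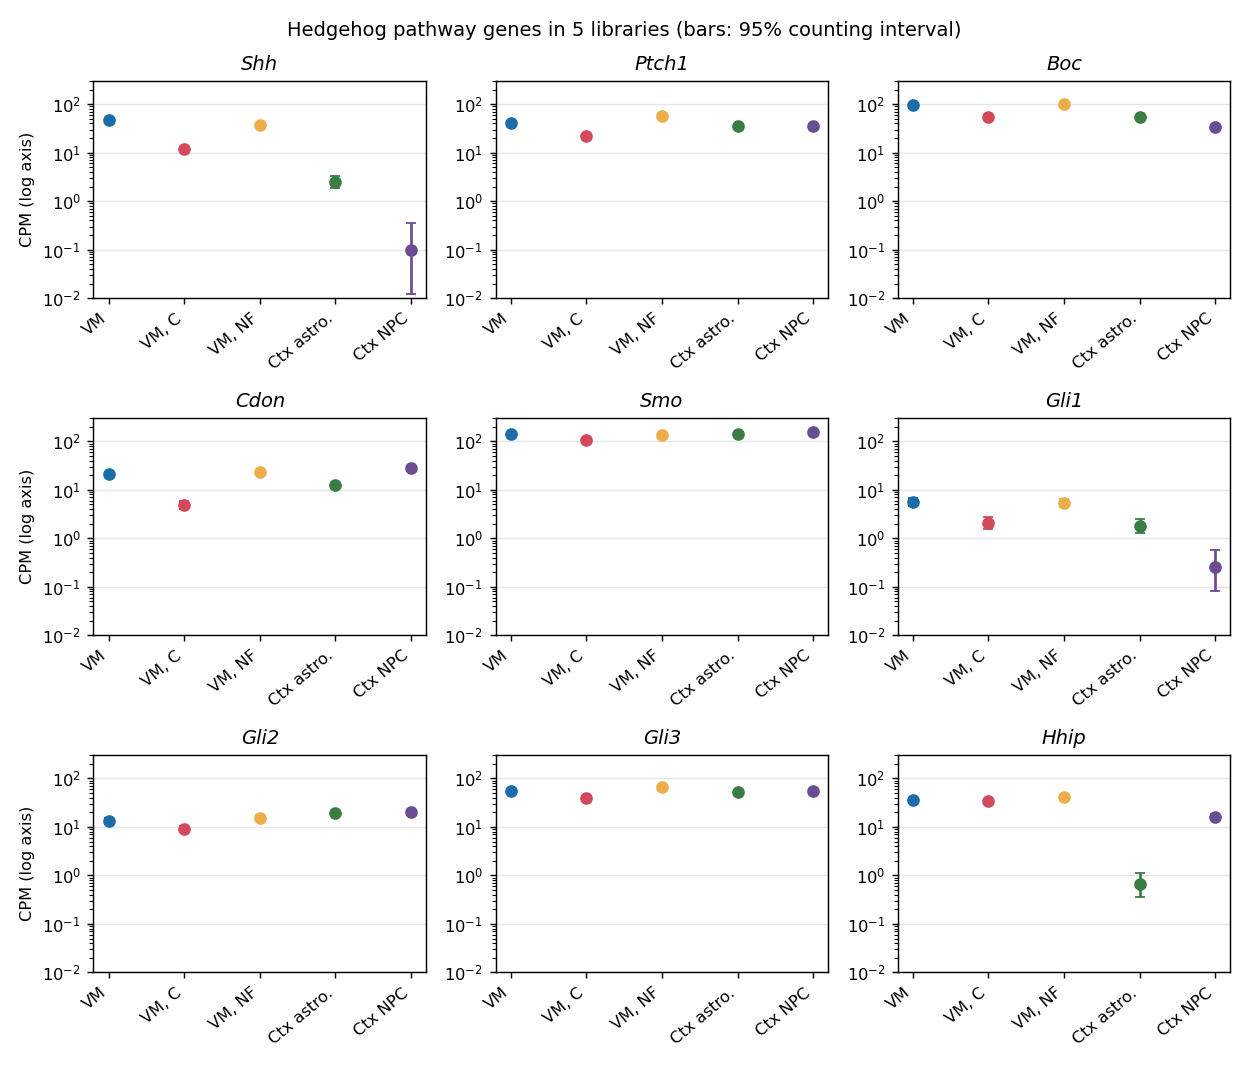
Levels of the 9 hedgehog pathway genes in the 5 libraries, as CPM on a log axis, 1 panel per gene; each point is 1 library and bars are 95% counting intervals. Shh and Gli1 are lowest in the library labelled Ctx NPC, Hhip is lowest in Ctx astrocytes at 0.653 CPM, and Smo lies between 106 and 152 CPM throughout.

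Ptch1, the receptor of the ligands and itself a target of the pathway, did not follow Shh into the cortical libraries. NM_008957 (chromosome 13, 63508328 to 63573460) had 879 reads in VM, 508 in VM C, 1170 in VM NF, 749 in Ctx astrocytes and 710 in the library labelled Ctx NPC. As CPM these were 41.3, 22.5, 57.5, 34.9 and 35.5, with the intervals of the last pair overlapping. The highest and lowest levels were both in transduced VM cultures, VM NF and VM C, 2.55-fold apart.

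The co-receptors differed from each other. Boc had 2026 reads in VM, 1249 in VM C, 2014 in VM NF, 1153 in Ctx astrocytes and 691 in the library labelled Ctx NPC, or 95.1, 55.4, 99.0, 53.8 and 34.5 CPM. VM and VM NF overlapped at the top, and VM C and Ctx astrocytes overlapped below them. Cdon had 440, 111, 469, 269 and 577 reads in the same order of libraries, or 20.7, 4.92, 23.1, 12.5 and 28.8 CPM. It was lowest in VM C and highest in the library where Boc was lowest, a range of 5.86-fold.

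Smo, the transducer that Ptch1 holds back, was the highest of the 9 genes per length in every library, with an FPKM of 26.6 to 38.0, and varied least. Its reads were 2981 in VM, 2397 in VM C, 2770 in VM NF, 3048 in Ctx astrocytes and 3034 in the library labelled Ctx NPC, a range of 1.43-fold. VM C was the library that stood apart at the bottom, and each neighbouring pair of the other 4 overlapped.

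Among the Gli factors, Gli1, which is transcribed when the pathway is active, was the lowest per length in every library. NM_010296 (chromosome 10, 127329882 to 127341579) had 119 reads in VM, 47 in VM C, 109 in VM NF, 39 in Ctx astrocytes and 5 in the library labelled Ctx NPC, or 5.59, 2.08, 5.36, 1.82 and 0.250 CPM. VM and VM NF overlapped, VM C and Ctx astrocytes overlapped at a lower level, and the library labelled Ctx NPC was below all. Gli2, the main activator, had 286, 202, 317, 422 and 410 reads in the same order, higher in both cortical libraries than in the 3 VM libraries. Gli3, the main repressor, had 1180, 888, 1370, 1102 and 1117 reads, a range of 1.71-fold.

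Set against each other per length, the factors made up different shares of their summed FPKM. Gli1 was 15.1% of the sum in VM, 8.64% in VM C, 12.4% in VM NF, 5.20% in Ctx astrocytes and 0.699% in the library labelled Ctx NPC. Gli3 held 64.0% to 71.1% throughout, and Gli2 held 19.7% to 20.3% in the VM libraries against 30.8% and 31.3% in the cortical ones. Gli1 per Gli3 was 0.232 (counting interval 0.190 to 0.280) in VM and 0.183 (0.149 to 0.222) in VM NF, which overlap. In VM C it was 0.122 (0.0887 to 0.163), which lies below the interval of VM but overlaps those of VM NF and Ctx astrocytes. In Ctx astrocytes it was 0.0813 (0.0575 to 0.112), and in the library labelled Ctx NPC 0.0103 (0.00333 to 0.0241).

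**Figure D2:**
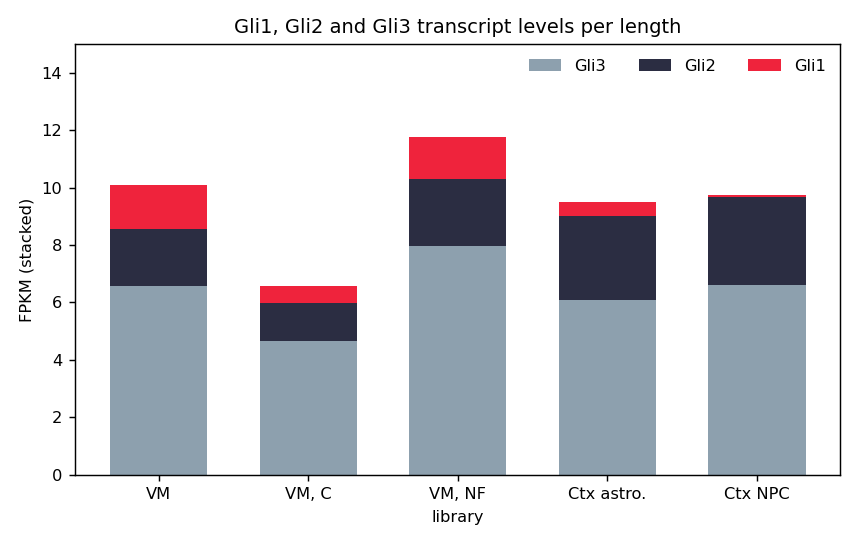
FPKM of Gli3, Gli2 and Gli1 stacked for each library, with no error bars. The Gli1 part is largest in VM, at an FPKM of 1.52, and smallest in the library labelled Ctx NPC, at 0.0680, while the sums run from 6.56 in VM C to 11.8 in VM NF.

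Hhip, the antagonist that binds the ligand, separated the cultures in another order. NM_020259 (chromosome 8, 79965850 to 80058060) had 764 reads in VM, 760 in VM C, 844 in VM NF, 14 in Ctx astrocytes and 326 in the library labelled Ctx NPC. The CPM was 35.9, 33.7, 41.5, 0.653 and 16.3. The 3 VM libraries stayed within 1.23-fold of each other, and Ctx astrocytes were apart from all other libraries at the bottom, so the feedback genes Hhip, Ptch1 and Gli1 did not share an order over the libraries.

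The tables count reads on exons, and whether counting used strand is not given in the sources used here. In the GENCODE annotation of GRCm38, 446 and 361 exon bases of Shh overlap genes on the opposite strand (9530036O11Rik and Gm26894). For Gli1 the overlaps are 62 bases with Arhgap9 and 265 with Gm47200, for Gli3 188 with Gm6556 and for Hhip 175 with Gm27820. Reads of these partners cannot be told apart from those of the pathway gene without strand. Ptch1, Gli2, Smo, Boc and Cdon have no such overlap.

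VM C was first compared with VM, a comparison of a transduced with an untransduced culture. All 9 genes were lower in VM C, under library totals and under 3 other scalings, and in 8 the counting interval excluded equality (Hhip, at -0.09, -0.24 to 0.06, was the other). Shh was 4.03-fold lower (log2 ratio -2.01, -2.22 to -1.82), Cdon 4.18-fold (-2.06, -2.38 to -1.77) and Gli1 2.66-fold (-1.41, -1.94 to -0.92). These 3 passed 2-fold, where 8.48% of the 12703 transcripts with FPKM above 1 were lower and 7.30% higher. The interval of Gli1 includes 2-fold. Ptch1, Boc, Gli2, Gli3 and Smo differed by less, with log2 ratios of -0.87, -0.78, -0.58, -0.49 and -0.40. The median of the 9 was -0.78 and that of all transcripts -0.01. The 3 VM libraries enter 3 comparisons that share libraries, so their results are not independent of each other.

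Other cell type markers moved beside these genes. In VM C all 9 microglia markers were higher than in VM, 7 of them past 2-fold, with a summed FPKM of 294 against 74.3. Of the 8 mature oligodendrocyte markers 7 were higher, 6 past 2-fold (168 against 113), and of 5 oligodendrocyte progenitor markers all were higher, 3 past 2-fold (177 against 92.1). All 6 ependymal markers were lower, 4 past 2-fold (31.5 against 162), and of the 7 fibroblast and mural markers 4 were lower, 3 past 2-fold, and 3 higher (462 against 874). Acta2 and Col1a1 make up most of that last difference, and Dcn, Lum and Pdgfrb were the higher ones. In VM NF these sums were 48.6, 90.8, 74.4, 148 and 833. Of the 8 neuron markers 6 were higher in VM C than in VM, 3 past 2-fold, and 2 were lower. Of the 9 astrocyte markers 3 were higher and 6 lower, with 1 past 2-fold in each direction. Hes5, a progenitor marker, had 0 reads in VM C, and 3 reads, the floor, in both VM and VM NF. The part of these cells in the hedgehog values was not tested.

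VM NF was close to VM for all 9 genes. None passed 2-fold, in a comparison where 0.322% of 12428 transcripts were higher and 0.668% lower. Ptch1 had the largest difference, 1.39-fold higher (0.48, 0.35 to 0.61), and Shh was 1.28-fold lower (-0.35, -0.49 to -0.21). Gli3 (0.28, 0.17 to 0.40) and Hhip (0.21, 0.07 to 0.35) were also off equality by counting error. For Gli1 (-0.06, -0.45 to 0.33), Gli2 (0.21, -0.02 to 0.45), Smo (-0.04, -0.11 to 0.04), Boc (0.06, -0.03 to 0.15) and Cdon (0.16, -0.03 to 0.35) a difference was not detectable at this depth. Foxa2 was 3.31-fold and Nr4a2 2.36-fold higher in VM NF than in VM.

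VM NF against VM C is the comparison the transduction was designed for, and its direction rests on the titles. All 9 genes were higher in VM NF, and 4 passed 2-fold, where 9.53% of 12701 transcripts were higher and 9.73% lower. Shh was 3.16-fold higher (1.66, 1.46 to 1.87), Cdon 4.67-fold (2.22, 1.93 to 2.54), and Ptch1 (1.35, 1.20 to 1.51) and Gli1 (1.35, 0.86 to 1.89) were both 2.55-fold higher, the interval of Gli1 again including 2-fold. Boc, Gli2 and Gli3 had log2 ratios of 0.84, 0.80 and 0.77, Smo 0.36 and Hhip 0.30. The median was 0.84, against -0.02 for all transcripts. All 9 genes had intervals off equality. Set beside VM, these differences lie mostly in VM C, since VM NF was within 1.39-fold of VM for every gene while VM C was lower for every gene. The same microglia markers were lower in 9 of 9 and past 2-fold in 7, and their part in this difference was not tested.

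**Figure D3:**
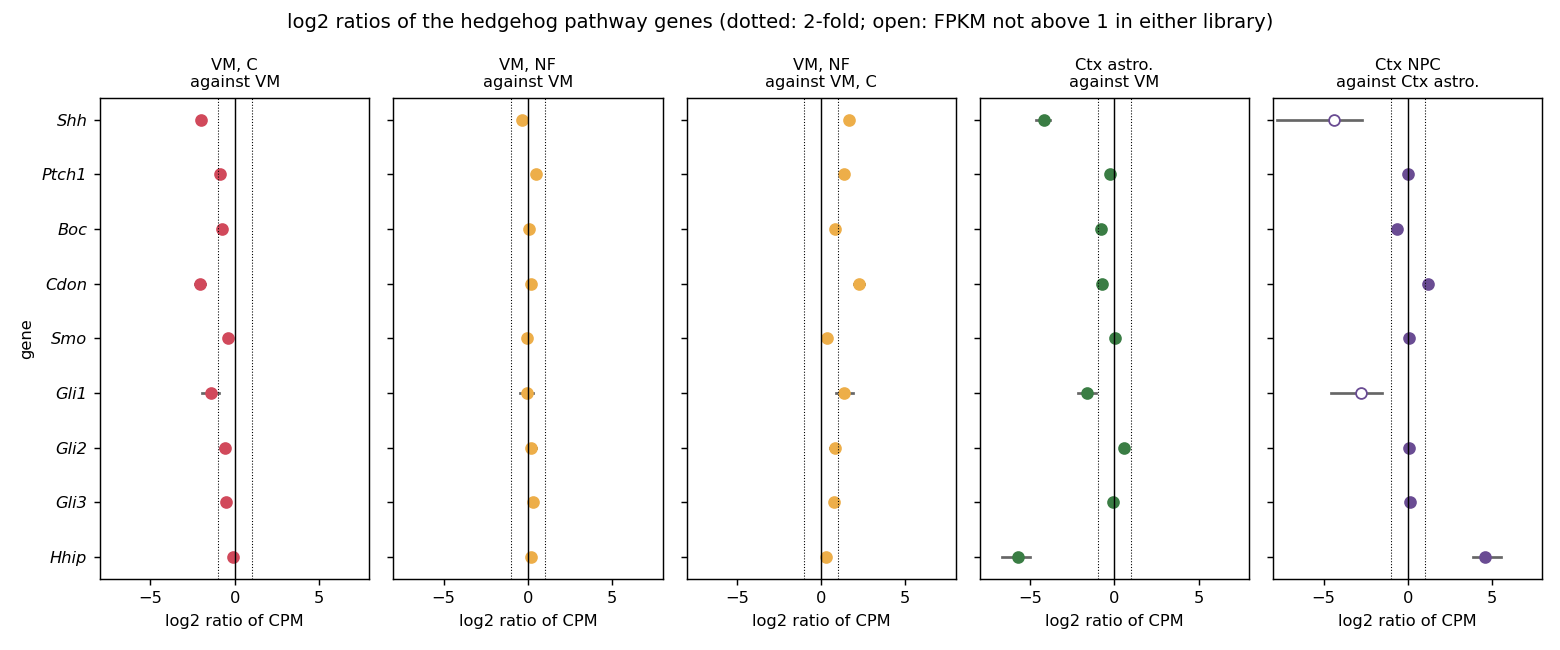
log2 ratio of CPM of the 9 genes in the 5 comparisons, 1 panel per comparison, with 95% counting intervals as horizontal bars and 2-fold as dotted lines; open points had no FPKM above 1 in either library. All 9 points lie left of 0 for VM C against VM and right of 0 for VM NF against VM C, and Shh and Hhip are farthest from 0 in Ctx astrocytes against VM.

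Ctx astrocytes were compared with VM as cultures of the same age from another brain region. Shh was 18.5-fold lower in Ctx astrocytes (-4.21, -4.65 to -3.83), Hhip 53.0-fold lower (-5.73, -6.66 to -5.02) and Gli1 3.04-fold lower (-1.61, -2.18 to -1.09). These 3 passed 2-fold with intervals wholly past it, where 9.89% of 12553 transcripts were lower and 4.49% higher. Boc was 1.77-fold (-0.82, -0.93 to -0.72) and Cdon 1.64-fold (-0.72, -0.94 to -0.50) lower. Ptch1 was 1.18-fold lower (-0.24, -0.38 to -0.10). Gli2 was the gene that was higher by more than counting error, 1.47-fold (0.55, 0.33 to 0.77). Gli3 (-0.11, -0.23 to 0.01) and Smo (0.02, -0.05 to 0.10) did not differ detectably at this depth. The median of the 9 was -0.72, against -0.05 for all transcripts.

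The choice of VM library was varied after the data were seen. Against VM NF the same 3 genes passed 2-fold lower, Shh by 14.5-fold, Hhip by 61.3-fold and Gli1 by 2.92-fold, where 8.69% of 12469 transcripts were lower and 4.41% higher. Against VM C, Shh (4.60-fold) and Hhip (49.9-fold) were lower, while Gli2 (2.20-fold) and Cdon (2.54-fold) were higher in Ctx astrocytes, where 14.5% of 12692 transcripts were lower and 11.7% higher. Gli1 then had a log2 ratio of -0.19 (-0.85 to 0.45) and no FPKM above 1. Of these genes Hhip kept nearly the same difference against each VM library. Ctx astrocytes also had lower microglia markers than VM (9 of 9, 7 past 2-fold, summed FPKM 23.4 against 74.3), lower proliferation markers (6 of 6 past 2-fold, 25.2 against 100), lower fibroblast and mural markers (7 of 7, 3 past 2-fold, 405 against 874) and higher astrocyte markers (8 of 9, 6 past 2-fold). The oligodendrocyte progenitor marker Gpr17 and the ependymal marker Tmem212 had 0 reads there. Their part in the hedgehog values was not tested.

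The library labelled Ctx NPC was compared with Ctx astrocytes, which differ in age and cell type together. Hhip was 24.1-fold higher (4.59, 3.87 to 5.53) and Cdon 2.30-fold higher (1.20, 0.99 to 1.41), 2 of the 7 genes with FPKM above 1, in a comparison where 20.1% of 12623 transcripts were higher and 17.9% lower. The number past 2-fold is near that background. Shh, with 2 against 54 reads (-4.36, -7.74 to -2.73), and Gli1, with 5 against 39 (-2.75, -4.56 to -1.52), were lower by counting error but had no FPKM above 1 in either library. Boc was 1.56-fold lower (-0.64, -0.78 to -0.50). Other scalings moved the median of all transcripts, 0.19 here, by -0.17 to -0.18, and Ptch1, Gli2, Gli3 and Smo, which lie between 0.02 and 0.12 under library totals, then turn below 0, so no direction is given for them. All 8 mature oligodendrocyte markers were past 2-fold higher in this library, as were 7 of 8 neuron markers and 5 of 6 proliferation markers. The remaining neuron marker, Stmn2, was past 2-fold lower. Of 7 fibroblast and mural markers 5 were past 2-fold lower and 1 higher. Of 6 ependymal markers 3 were past 2-fold lower and 1 higher. The microglia markers summed to 0.664 against 23.4, with Trem2 at 0 reads. Their part was not tested.

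The library labelled Ctx NPC was also set beside VM, a comparison added after the data were seen, in which region, age and cell type differ together. Shh (2 reads against 1003, a log2 ratio of -8.57, -11.93 to -7.02), Gli1 (-4.36, -6.13 to -3.22), Boc (-1.46, -1.59 to -1.34) and Hhip (-1.14, -1.33 to -0.95) were past 2-fold lower, in a comparison where 20.2% of 12929 transcripts were lower and 17.9% higher. Gli3 was at 0.01 (-0.11 to 0.13) and Cdon at 0.48 (0.30 to 0.66).

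The other genes of hedgehog signalling were taken from a list of 45, of which 44 were in the tables (Disp1 was not among the rows used). In VM C against VM, 2 of the 38 with FPKM above 1 were past 2-fold higher and 6 lower, with a median of -0.34, where 7.30% of all transcripts were higher and 8.48% lower. Lower were Sfrp1, a secreted Wnt inhibitor and known hedgehog target (-2.22), Scube3, a factor of the group that aids release of the ligand (-2.17), Dhh, another hedgehog ligand (-1.88), Lrp2, a large endocytic receptor that takes up Shh (-1.60), the transcription factor Foxa1 (-2.58) and the glypican Gpc3 (-1.15). Higher were Disp2, a relative of the ligand release protein Disp1 (2.67), and Olig2, a transcription factor of the oligodendrocyte lineage and of ventral progenitors (1.54). None of the 18 genes of the cilium and signal relay passed 2-fold, 14 of them being lower and 4 higher. In VM NF against VM 0 of 38 passed, with a median of 0.01. In VM NF against VM C the 8 genes named above were past 2-fold in the opposite direction, 6 higher and 2 lower of 37, with a median of 0.38, where 9.53% of all transcripts were higher and 9.73% lower.

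Reads of 3 of these genes show the pattern over all libraries. Dhh had 542 reads in VM, 156 in VM C, 585 in VM NF, 1286 in Ctx astrocytes and 189 in the library labelled Ctx NPC. It was thus highest in Ctx astrocytes and lowest in VM C, whereas Shh was lower in Ctx astrocytes than in every VM library. Sfrp1 had 13869, 3144, 13417, 4883 and 1248 reads in the same order. Foxa1 had 267, 47, 252, 3 and 4 reads, and was thus near the floor in both cortical libraries.

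In Ctx astrocytes against VM, 1 of 38 listed genes was past 2-fold higher (Dhh, 1.24) and 8 were lower, with a median of -0.28, where 4.49% of all transcripts were higher and 9.89% lower. The target genes known from development had a median of -1.12 with 6 of 12 past 2-fold lower, and the genes of the cilium and signal relay had a median of -0.09 with 0 of 18 past 2-fold. The 6 targets were Foxa1 (-6.26, -8.77 to -4.92, from 3 reads against 267), the ventral progenitor factors Nkx6-1 (-3.56, from 5 against 64) and Nkx6-2 (-3.49, from 10 against 117), the forkhead factors Foxf2 (-2.39) and Foxc2 (-1.70), and Sfrp1 (-1.51). Foxf2 and Foxc2 are also genes of mesenchymal cells, whose fibroblast and mural markers were lower in the same library, and their part was not tested. Hhat, which attaches the palmitate to the ligand, was lower too (-2.03), from 25 reads against 103. The reference was varied after the data were seen. Against VM NF, 1 of 37 was past 2-fold higher and 8 lower (all transcripts 4.41% and 8.69%), with a median of -0.23. Against VM C, 3 of 36 were higher and 8 lower (11.7% and 14.5%), with a median of 0.27. Scube3 and Lrp2 were then past 2-fold higher, and Foxa1 (no FPKM above 1) and Sfrp1 were not counted lower. The targets had a median of -1.33 there, with 6 of 11 past 2-fold lower.

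**Figure D4:**
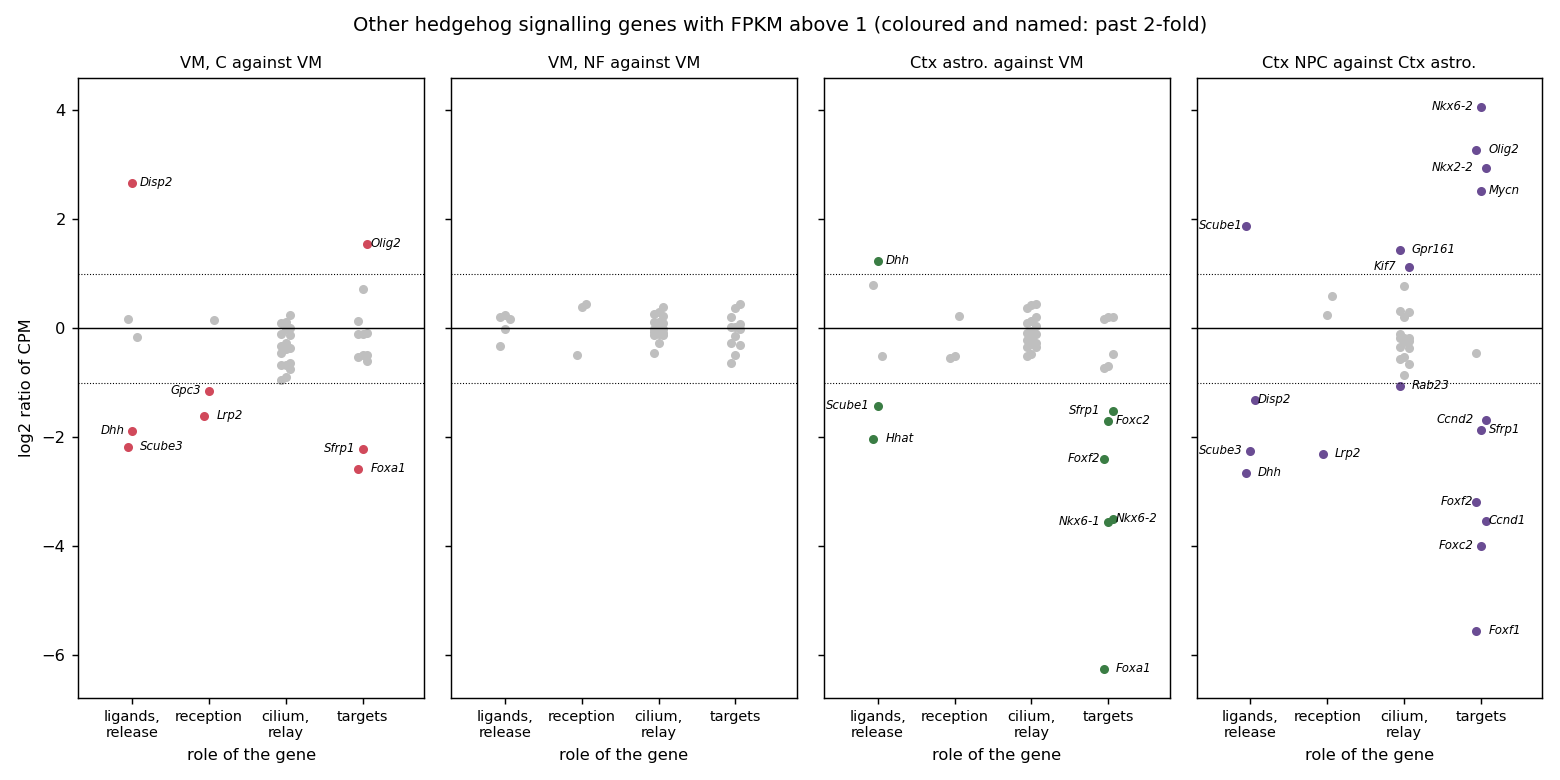
log2 ratio of CPM of the other hedgehog signalling genes with FPKM above 1 in 4 of the comparisons, grouped by role; named and coloured points are past 2-fold and dotted lines mark it. Genes of the cilium and signal relay lie within 2-fold in the first 3 panels, while targets spread down to -6.26 (Foxa1) in Ctx astrocytes against VM.

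In the library labelled Ctx NPC against Ctx astrocytes, 7 of 37 listed genes were past 2-fold higher and 11 lower, with a median of -0.25 against 0.19 for all transcripts. With 20.1% of all transcripts higher and 17.9% lower, the number higher is near that background. The cyclins Ccnd1 (-3.53) and Ccnd2 (-1.68), Sfrp1 (-1.87), Dhh (-2.66) and Rab23, a GTPase that restrains the pathway (-1.05), were lower. Olig2 (3.27), Nkx2-2 (2.95) and the ciliary kinesin Kif7 (1.12) were higher. Under the other scalings of the library totals 6 listed genes were past 2-fold higher and 12 lower. Kif7 was the higher gene nearest to 2-fold. Olig2 and Nkx2-2 are also genes of the oligodendrocyte lineage, whose progenitor markers summed to 908 against 137 FPKM here, and their part was not tested.

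The genes whose profiles over the 5 libraries were most like those of Shh, Ptch1 and Gli1 were ranked by the root-mean-square distance between centred log2 CPM values, as a description over 5 points. For Gli1 these were Aqp1 (0.123), Mme (0.138), Cyp1b1 (0.162), Frmd6 (0.173) and 2310030G06Rik (0.174), among 13192 transcripts. For Ptch1 they were Pabpc4l (0.086), 4933427D14Rik (0.088), Bcl2l11 (0.093), Cpox (0.118) and Usp35 (0.128), and 437 of 13192 transcripts lay within a distance of 0.3. For Shh they were farther away. The nearest, among 14019 transcripts, were Msln (0.295), Edn1 (0.472), Iapp (0.546), Galnt15 (0.590) and Crct1 (0.597).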

How the data were processed

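The RNA-seq tables of 5 mouse libraries were used, grouped by title, with 1 library for each condition. The authors trimmed reads at a quality of 20, checked mismatches with Bowtie, mapped with STAR and counted reads on RefSeq Release 105 exons with HTSeq-count. Their methods name GRCm38/mm10, while the submitters' processing notes name mm9 and list bcl2fastq 1.8.4 and DESeq. Read counts were deposited unnormalized, as whole numbers for each transcript, and the deposited FPKM divides each count by transcript length and library total (recomputed here to a relative difference of at most 4.09e-05). The files hold no coordinates. Coordinates here are those of RefSeq on GRCm38.p6, and 19997 of 20178 transcripts were paired with a symbol, while 181 stayed as identifiers.

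Each count received 0.5 reads and was divided by its library total before log2 ratios were taken, with exact (Clopper-Pearson) 95% intervals of ratios and exact Poisson intervals of levels. PCR copies of a molecule are counted as separate reads, while intervals and floors treat reads as independent. The intervals cover counting error only, and may be too narrow even for that. At 20010818 to 22554835 reads, 3 reads is the smallest level taken as measurable. No test was possible. The calculations were tested on simulated data. Named were all 9 genes, Foxa2 and Nr4a2, listed signalling genes past 2-fold (up to 8 per comparison with the highest FPKM) and, for Shh, Ptch1 and Gli1, the 5 nearest profiles among transcripts that reached 1 CPM in some library and had, except for Shh, at least 3 reads in every library. The genes, lists and markers were chosen with earlier results of these data known. Alternatives were edgeR's TMM factors, DESeq2's size factors, upper-quartile scaling, 5 reads added, other filters on FPKM, the deposited FPKM as unit, an interval wholly past 2-fold and, added after the data were seen, other reference libraries. The software was R 4.3.3 with DESeq2 1.42.0 and edgeR 4.0.16, and Python 3.11.15 with matplotlib 3.10.9, pandas 2.3.3, scipy 1.17.1 and numpy 2.4.6.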

Additional observations from a re-analysis of the deposited data

How the results depend on the processing

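No paired analysis was possible because each condition had 1 library, and for the same reason no library could be left out of a group. Of 71 counts of genes past 2-fold recomputed under the alternatives, 61 stayed within 1.5 times the first value and 10 did not. These counts add both directions and do not show a change of direction. In Ctx astrocytes, 0 of the 9 genes were higher and 3 lower against VM. Against VM C 2 were higher and 2 lower, which still counts as within 1.5 times. Of 225 log2 ratios of the 9 genes, 213 moved by less than their counting interval and 12 by more. All 12 were under other scalings of the library labelled Ctx NPC against Ctx astrocytes (Ptch1, Gli3, Smo and Boc). With FPKM above 1 required in both libraries, the number of the 9 genes past 2-fold became 1 in VM C against VM, 2 in VM NF against VM C, 0 in Ctx astrocytes against VM and 1 in the library labelled Ctx NPC against Ctx astrocytes, and the number of listed signalling genes became 4 and 11 in the last pair of comparisons, since fewer genes are then counted. Without a filter, 1 listed gene passed in VM NF against VM, and 4 of the 9 genes passed in the library labelled Ctx NPC against Ctx astrocytes. With the interval wholly past 2-fold 1 did there, and 4 passed, all lower, with VM as the reference, chosen after the data were seen. Low counts limit Shh and Gli1 in the cortical libraries and Hhip in Ctx astrocytes.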

Other observations

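Some relatives of the 9 genes were close to the floor in every library. Ihh, a further hedgehog ligand, had 3 to 8 reads. Scube2, a ligand release factor, had 1 to 12 reads and the glypican Gpc5 5 to 16. Gas1, a co-receptor, was by contrast well measured, with 1239 reads in VM, 1459 in VM C, 845 in VM NF, 1455 in Ctx astrocytes and 1620 in the library labelled Ctx NPC. VM NF was the lowest for Gas1, unlike for the co-receptors Boc and Cdon.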
